A study of Homo sapiens with 3 samples.

Results

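Genes of vesicle coats, RAB and ARF GTPases and protein sorting were followed through clusters of C-to-U RNA editing in human HEK293T cells. The genes were chosen by symbol alone, as the SEC, COP, TMED, RAB, ARF, VPS, SNX, clathrin chain, adaptor (AP1 to AP4) and KDELR families, leaving out symbols that end in P and a number. The rule itself uses no measured value. They were 142 of the 9904 gene symbols with a cluster, and 850 of the 40843 clusters listed at least 1 of them. A cluster here is a stretch of 1 strand in which FLARE found more edited C bases than its Poisson background, and a symbol counts as listed when it stands anywhere in the gene field of the cluster.

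RNA editing was measured in 3 replicates of 1 condition by STAMP, in which an RNA-binding protein is fused to the cytidine deaminase APOBEC1 and leaves C-to-U edits in the RNA near the places where it binds. All 3 libraries carry the RBFOX2-APOBEC1 fusion, induced with doxycycline for 72 h in HEK293XT, a HEK293T derivative from embryonic kidney that is labelled wild type. The labels give transient transfection as the treatment and also speak of stable lines, and they name poly(A) RNA. A library of APOBEC1 alone was not analysed here, so edits that depend on RBFOX2 cannot be told apart from edits that do not.

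Vesicle transport moves proteins and lipids between the compartments of a cell. COPII coats bud vesicles from the endoplasmic reticulum, COPI coats return cargo to it, and clathrin with its adaptor complexes coats vesicles at the Golgi, endosomes and plasma membrane. ARF GTPases recruit coats, RAB GTPases give membranes their identity and guide vesicles to their targets, and retromer, sorting nexins, ESCRT, HOPS and GARP sort or tether cargo along the endosomal routes. RBFOX2 is an RNA-binding protein best known as a regulator of splicing.

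The members held 274, 326 and 250 clusters in replicates 1, 2 and 3. That was 1.92% (Wilson 95% interval 1.70 to 2.15), 2.15% (1.93 to 2.39) and 2.20% (1.95 to 2.49) of all clusters of the replicate. These intervals, as all others here, cover counting error only. The clusters came from 108, 110 and 107 genes and held 1119, 1145 and 872 edited reads, which was 1.78% ± 0.0879 (SD, n = 3) of the edited reads in clusters. Reads and edited reads are summed over clusters throughout, so a read that spans neighbouring clusters can count in each. Replicate 3 had the fewest edited reads of all genes together, at 46384 against 63559 and 67014, and it had the fewest in 14 of the 25 member genes plotted by edited reads. Of 207 protein-coding symbols in RefSeq that fit the same families, 141 had a cluster and 66 had none. Low expression and absence of edits cannot be told apart for those 66, since only clusters were analysed. Symbols were matched by exact name, so a gene that the deposited annotation lists under another symbol would also count among the 66.

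Recurrence was read first by gene. Clusters were present in all 3 replicates for 74 of the 142 genes (52.1%), beside a background of 37.9% over all 9904 symbols. Another 35 genes had clusters in 2 replicates and 33 in 1. Overlapping clusters of the 3 replicates were then joined into loci, with a shared base on the same strand as the condition. Of 652 member loci, 45 (6.90%) were found in all 3 replicates, beside 4.77% of all loci. In at least 2 replicates the shares were 21.2% for members and 16.6% for all loci. The 45 loci lay in 27 genes (19.0% of the members, against 12.9% of all symbols), and 13 of these genes held more than 1. In 40 of the 45 loci every pair of replicates shared a base. In the other 5 (in ARF1, ARF6, CLTC, COPB2 and SNX5) a pair was joined only through a cluster of the remaining replicate.

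Recurrence followed read depth and edited reads among the members. Of member clusters with 100 or more reads of mean depth, 49.5% ± 1.31 (SD, n = 3) lay in a locus found in all 3 replicates, against 40.1% ± 3.43 of all clusters of that depth. At a depth of 50 to 100 the shares were 28.2% ± 12.7 for members and 21.6% ± 5.12 for all clusters. At 20 to 50 they were 10.7% ± 5.72 and 11.4% ± 3.32, and under 20 they were 0.793% ± 0.698 and 3.46% ± 1.57. With at least 5 edited reads 53.8% ± 4.12 of member clusters lay in such a locus, against 51.4% ± 5.53 of all. With 2 to 4 edited reads the shares were 11.1% ± 5.28 and 8.81% ± 2.85, and with 1 they were 1.89% ± 1.02 and 3.06% ± 0.632. Members were thus above all clusters in some classes and below in others. The median read depth of member clusters was 42.4, 37.2 and 30.02, against 24.9, 24.5 and 20.9 in the clusters without a member gene. Depth was higher in members in each of the 3 replicates, and the part of depth in their recurrence was not tested beyond these classes.

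Edited reads were unevenly spread over the genes. The 5 genes with the most carried 25.6% ± 1.60 (SD, n = 3) of the edited reads of all members, the first 10 carried 40.3% ± 2.03 and the first 25 carried 65.7% ± 0.288. At the other end, 27 genes had 1 cluster in the whole data set. Clusters that also listed another gene occurred for 23 genes, in 91 clusters, and 14 genes had no other kind. Among these is RAB1C, a pseudogene in RefSeq that the symbol pattern kept, whose 4 intronic clusters lie in a span that also lists EXOSC3, SLC25A51 and TOMM5, so its edits cannot be assigned.

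**Figure D1:**
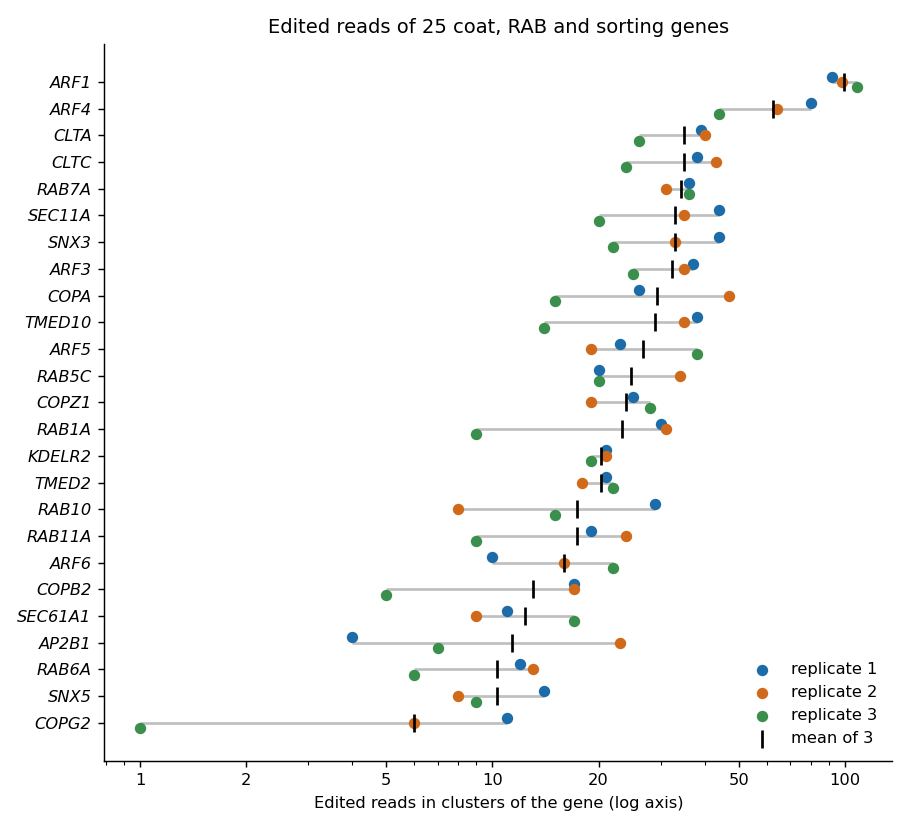
Edited reads in the clusters of a gene (log axis) in each replicate (coloured points), with their range (grey line) and mean (black tick), for the 25 genes with the most edited reads among those with a locus in all 3 replicates. ARF1 lies apart from the rest at 92, 98 and 108 edited reads, and COPG2 is lowest at 11, 6 and 1.

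The ARF GTPases, which switch coat assembly on at Golgi and endosomal membranes, recurred most. All 5 had clusters in every replicate and each held at least 1 locus found in all 3, beside 37.9% and 12.9% of all symbols. Of their 31 loci 13 (41.9%) recurred in all 3 replicates, beside 4.77% of all loci. Their clusters had the highest median read depth of the roles, at 108 ± 16.8 (SD, n = 3). Of all clusters with 100 or more reads of mean depth, 40.1% ± 3.43 lay in a locus found in all 3 replicates. That is a share of clusters and not of loci, and whether ARF genes differ from equally deep clusters was not tested. ARF1, which recruits COPI and Golgi adaptors, had 6 clusters in each replicate and 92, 98 and 108 edited reads. Of its 6 loci 5 recurred, all in 1 exon of chromosome 1 between 228285734 and 228286888 (hg19, plus strand). Their edit fraction, the edited C bases over the C bases covered by reads, averaged from 0.415% ± 0.106 to 0.565% ± 0.123 (SD, n = 3), and the ranges of the 5 loci overlapped. ARF4, which acts at the early secretory pathway, had 80, 64 and 44 edited reads. ARF3, a close relative of ARF1, had 37, 35 and 25, in loci that also list a clone-named gene. ARF5 had 23, 19 and 38, and both of its loci also list FSCN3.

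ARF4 held 3 recurring loci with unlike edit fractions. At its 3′-most locus (chr3:57557166-57557330, minus strand) 2.69%, 2.12% and 2.71% of covered C bases were edited, from 28, 15 and 16 edited reads. At chr3:57557796-57558025, in the same exon, the edit fraction was 0.912%, 0.835% and 0.570%. The third locus, chr3:57561291-57561380 in an exon further 5′, had 0.380%, 0.521% and 0.523%. The lowest replicate of the first locus was above the highest replicate of both others.

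ARF6, the ARF of the plasma membrane and recycling endosomes, had 10, 16 and 22 edited reads. Its recurring locus (chr14:50361205-50361429, plus strand) had edit fractions of 1.45%, 1.49% and 3.18%. A separate cluster at chr14:50360125-50360169 was listed in replicates 2 and 3 and held the highest shares of edited reads of any member cluster. There 6 of 13 reads (46.2%, Wilson 95% interval 23.2 to 70.9) and 16 of 25 reads (64.0%, 44.5 to 79.8) were listed as edited. In replicate 3 these 16 edited reads stand beside 15 edited C bases. An edited read holds at least 1 edited base, so the counts conflict and that share is uncertain. The edit fraction of this cluster, 5.31% and 5.98% over 15 C bases, equals 0.796 and 0.896 fully converted C bases. Whether 1 position carries these edits was not tested, because the files give no single positions.

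RAB GTPases were the largest family, with 36 genes including RAB1C. Clusters were present in all 3 replicates for 17 of them, beside 37.9% of all symbols. The 10 recurring loci of 161 (6.21%, beside 4.77% of all loci) lay in 6 of the genes. RAB7A, the RAB of late endosomes and lysosomes, had 36, 31 and 36 edited reads. RAB5C, of early endosomes, had 20, 34 and 20, in clusters that all list a clone-named gene as well, and RAB1A, which acts between the endoplasmic reticulum and the Golgi, had 30, 31 and 9. RAB10 had 29, 8 and 15, RAB11A of recycling endosomes 19, 24 and 9, and RAB6A of the Golgi 12, 13 and 6. Of these 6 genes replicates differed most in RAB1A and RAB10, each by more than 3-fold between the lowest and the highest.

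RAB7A carried 3 recurring loci within 1 exon of chromosome 3. At chr3:128532591-128532695 the edit fraction was 1.99%, 0.941% and 1.32%, and at chr3:128532741-128532920 it was 1.70%, 0.763% and 3.21%. The third, chr3:128532996-128533160, had 0.798%, 0.834% and 0.499%. The replicates of the third locus overlapped those of the second and lay below those of the first. RAB6A had the highest mean edit fraction of the 45 loci, at 4.25%, 7.53% and 2.79% (chr11:73387554-73387733, minus strand), from 8, 4 and 5 edited reads. These values do not cover the same stretch. The cluster of replicate 2 holds only 3 C bases. Replicate 1 sums 2 clusters, of 6 and 3 C bases, and the first shares no base with that of replicate 2.

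**Figure D2:**
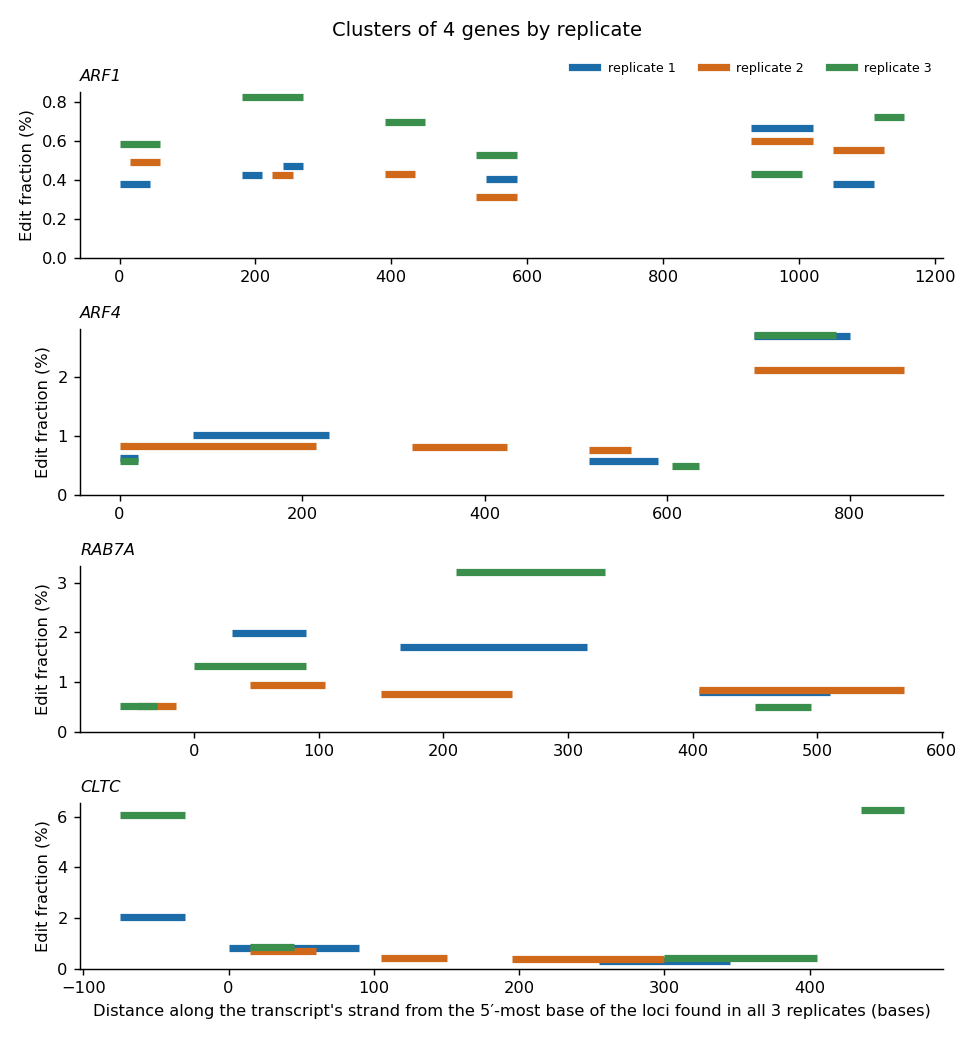
Edit fraction (%) of the clusters of ARF1, ARF4, RAB7A and CLTC along the strand of the gene, by distance in bases from the 5′ end of the recurring loci drawn, with 1 bar per cluster and a colour per replicate. The 3′-most ARF4 locus lies above 2% in all 3 replicates, while the ARF1 clusters lie between 0.315% and 0.827%; the third ARF4 locus is outside the window, and each panel has its own scale.

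COPI, p24 and KDEL receptor genes serve the route between Golgi and endoplasmic reticulum. Every COPI and p24 gene with a cluster had one in each replicate (6 of 6 and 7 of 7), beside 37.9% of all symbols. RefSeq has 8 COPI and 10 p24 symbols that fit the rule, so some of each had no cluster. COPI subunits held 4 recurring loci of 43 (9.30%, beside 4.77% of all loci). COPA had 26, 47 and 15 edited reads and the longest member cluster, of 300 bases, in replicate 2. COPZ1 had 25, 19 and 28, COPB2 17, 17 and 5, and COPG2 11, 6 and 1. The recurring COPB2 locus spread most, with edit fractions of 0.616%, 2.07% and 4.65% from 2, 9 and 2 edited reads. Its clusters of replicates 1 and 3 share no base, and the one of replicate 3 holds only 1 C base. The p24 proteins, cargo receptors of COPI and COPII vesicles, held 4 recurring loci of 44 (9.09%). TMED10 had 38, 35 and 14 edited reads, TMED2 had 21, 18 and 22, and TMED9 had 3, 2 and 6. KDELR2, which retrieves escaped residents of the endoplasmic reticulum, had 21, 21 and 19 edited reads in 7, 5 and 6 clusters, while KDELR1 had clusters in 2 replicates and KDELR3 in 1.

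Of the 10 COPII coat genes with a cluster, 3 (SEC31A, SEC23A and SEC24A) had one in each replicate, beside 37.9% of all symbols. None of the 35 COPII loci was found in all 3, beside 4.77% of all loci. SEC31A, of the outer cage, had 1, 9 and 8 edited reads, SEC23A, of the inner coat, had 6, 1 and 8, and SEC24A, its cargo-binding partner, had 1, 3 and 2. The median read depth of COPII clusters was 19.9 ± 10.3 (SD, n = 3) against 54.1 ± 13.1 in COPI. The difference in recurrence between the coats was not tested. Genes of protein entry into the endoplasmic reticulum were deeper, at 75.6 ± 24.7. SEC11A, a catalytic subunit of signal peptidase, had 44, 35 and 20 edited reads and 2 recurring loci. SEC61A1, the channel of the translocon, had 11, 9 and 17 and 1 such locus. That made 3 recurring loci of 37 for these genes (8.11%, beside 4.77% of all loci). SEC61B, a small subunit of the same channel, had 6, 22 and 9 edited reads and SEC62, of post-translational import, had 2, 14 and 7, without such a locus. None of the 22 loci of SEC genes outside COPII and the translocon recurred, beside 4.77% of all loci, and the difference was not tested. Of these genes SEC23IP had 2, 5 and 4 edited reads and SEC22C had 4, 1 and 4.

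Clathrin and its adaptors had 19 genes, 11 of them in every replicate, beside 37.9% of all symbols. They held 6 recurring loci of 96 (6.25%, beside 4.77% of all loci). The light chain CLTA had 39, 40 and 26 edited reads and the heavy chain CLTC had 38, 43 and 24. AP2B1, of the plasma membrane adaptor, had 4, 23 and 7, and the light chain CLTB had 2, 3 and 3, all in its recurring locus. CLTC held 2 recurring loci on chromosome 17. The first (chr17:57771645-57771734, plus strand) had edit fractions of 0.829%, 0.710% and 0.870%. The second (chr17:57771840-57772049) had 0.293%, 0.398% and 0.430%, the lowest mean of the 45 loci, at 307, 203 and 153 reads of depth. The replicates of the first were all above those of the second.

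Sorting nexins, which bind phosphoinositides and shape or sort endosomal membranes, had 19 genes with 9 in every replicate, beside 37.9% of all symbols. Of their 77 loci 4 (5.19%) recurred, near the 4.77% of all loci. SNX3, a partner of retromer, had 44, 33 and 22 edited reads, and its 2 recurring loci had mean edit fractions of 0.641% ± 0.0487 and 0.794% ± 0.168 (SD, n = 3). SNX5 had 14, 8 and 9.

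None of the 90 loci of retromer, ESCRT, HOPS and CORVET, GARP and the remaining VPS genes was found in all 3 replicates. The share over all loci was 4.77%. At a depth under 20, 3.46% ± 1.57 (SD, n = 3) of all clusters and 0.793% ± 0.698 of member clusters lay in such a locus. At a depth of 20 to 50, where the retromer median falls, the shares were 11.4% ± 3.32 and 10.7% ± 5.72. The shares by depth count clusters and not loci. Whether these genes differ from any of these shares was not tested. Retromer was the most covered of these groups, with VPS35 at 14, 17 and 6 edited reads, VPS26A at 2, 11 and 3 and VPS29 at 3, 2 and 8. In ESCRT, VPS37C had 3, 1 and 2 and was the 1 gene with clusters in every replicate, ahead of VPS37B with 3, 11 and 0 and VPS36 with 6, 0 and 5. In HOPS and CORVET it was VPS39 with 1, 4 and 4, followed by VPS41 with 0, 1 and 6 and VPS8 with 2, 1 and 0. In the Golgi tether GARP it was VPS54 with 2, 1 and 6, before VPS53 with 0, 1 and 2 and VPS52 with 0, 0 and 2. Among the remaining VPS genes VPS45 had 2, 8 and 5 edited reads, VPS13A 2, 2 and 6 and VPS13C 1, 0 and 3. That group also holds VPS72, a chromatin factor that the symbol pattern brought in. The median read depth was 26.6 ± 2.71 in retromer, 16.0 ± 0.876 in ESCRT, 13.1 ± 3.92 in HOPS and CORVET and 13.4 ± 5.58 in GARP (SD, n = 3).

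**Figure D3:**
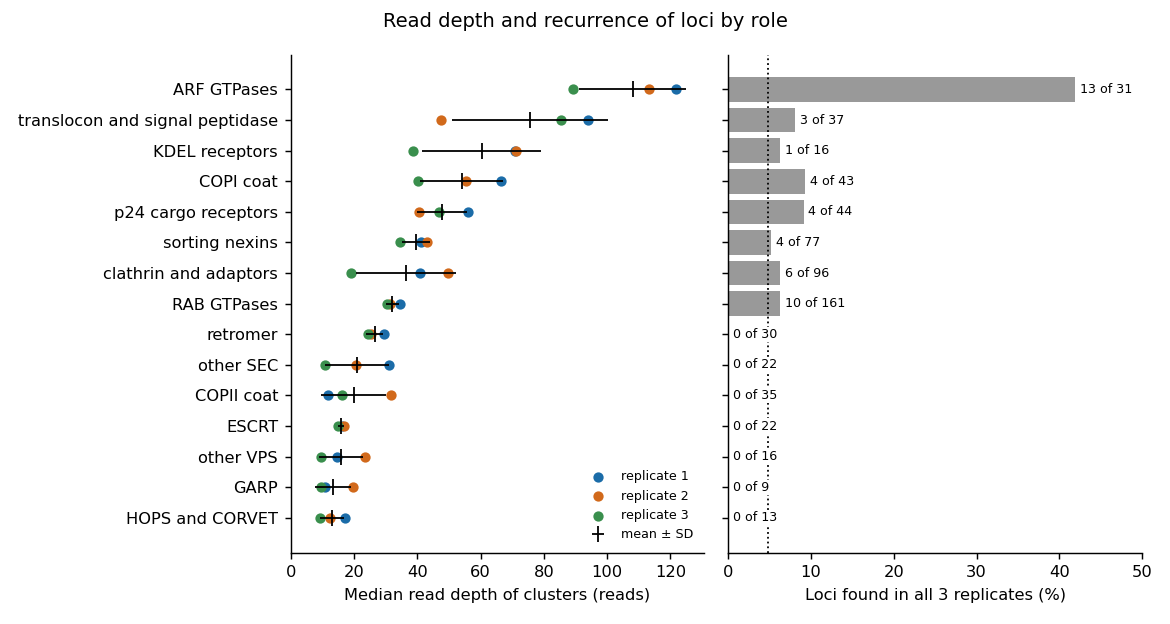
Left, median read depth of the clusters of each role by replicate (points) with mean ± SD. Right, share of the loci of each role found in all 3 replicates, with the counts and, as a dotted line, the 4.77% of all loci; ARF GTPases stand at 41.9% and the 7 roles with the lowest median depth have no such locus.

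Edit fraction fell with read depth in the members, as Spearman's rho of -0.808, -0.752 and -0.818 across the clusters of replicates 1, 2 and 3 describes. Clusters are not independent replicates, and the filter of the pipeline asks for a higher edit fraction at low depth, so no p-value is given. The median edit fraction of member clusters was 1.27%, 1.44% and 1.48%, against 1.64%, 1.65% and 1.81% in clusters without a member. The difference was -0.307 ± 0.0804 percentage points (SD, n = 3), lower in members in 3 of 3 replicates. The exact sign-flip permutation test over replicates (two-sided) gave p = 0.25, the smallest that 3 replicates allow, with an adjusted p of 0.27 over the 14 measures compared. Restricted to a depth of at least 50, the difference was -0.0767, 0.0349 and -0.0902 points in replicates 1, 2 and 3 (mean -0.0440, exact p = 0.50), so its sign was not shared. Relative to clusters of like depth the member median was -0.09, -0.02 and -0.09 on the log2 scale. The member clusters were also deeper in 3 of 3 replicates, by 13.1 ± 4.23 reads. Each edited read in a member cluster carried 1.70, 1.85 and 1.80 edited bases on average, against 1.59, 1.66 and 1.66 in the rest.

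**Figure D4:**
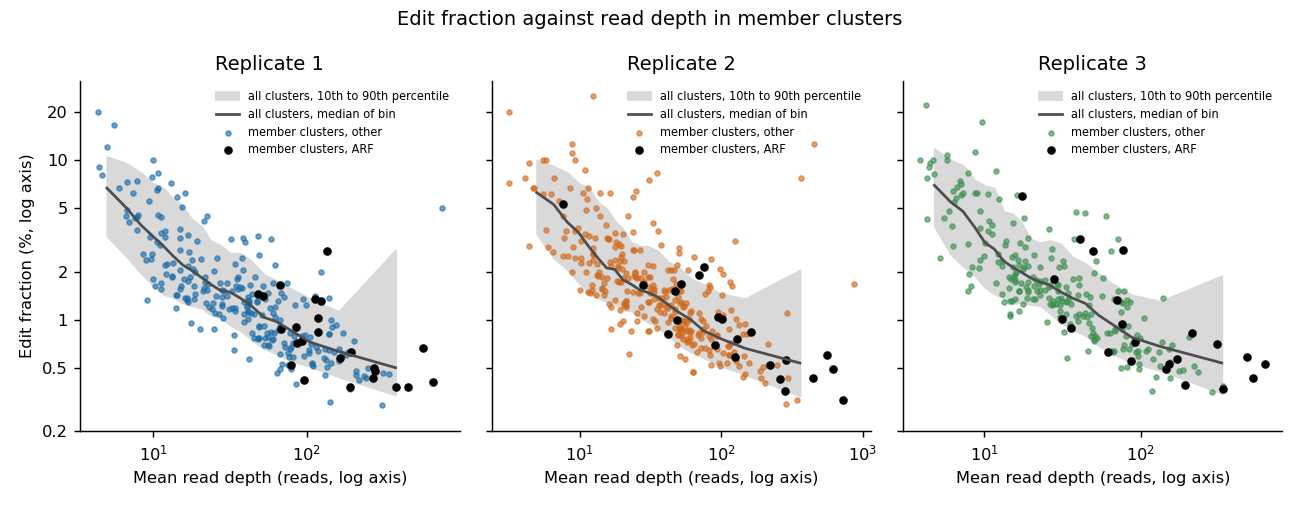
Edit fraction (%) against mean read depth (both log axes) of the member clusters in each replicate, with the ARF genes in black, over the median (line) and the 10th to 90th percentile (grey) of all clusters in 20 depth bins. Edit fraction falls with depth in all 3 replicates, and the clusters at 369 reads or more with an edit fraction above 1% are those in SEC31B and COPZ1 whose C bases few reads cover.

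Mean read depth did not always describe the coverage of the C bases. In 5, 13 and 6 member clusters the reads over a C base were fewer than 0.5 of the mean read depth. In the intronic clusters of COPZ1 a mean depth of 760 and 866 stood against 20 and 120 covered C bases, and these clusters also list HNRNPA1 and MIR148B. In SEC31B, in replicate 2, depths of 369 and 455 stood against 13 and 8 covered C bases, with NDUFB8 also listed. Each of these clusters rested on 1 or 2 edited reads and was found in 1 replicate. Only 3, 7 and 0 member clusters were intronic.

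Because edit fraction depends on depth, each of the 1586 loci found in all 3 replicates was compared with the clusters of like depth. The value is the log2 of its edit fraction over the median of its depth bin in the same replicate, tested against 0 with limma and Benjamini-Hochberg adjustment over all 1586. Over all loci 12.7% were above at an adjusted p under 0.05 and 1.2% were below. Of the 45 member loci 5 (11.1%) were above and 1 (2.22%) was below, and the member median was 0.04 against 0.14 over all loci. The share above is near the background.

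The 3′-most ARF4 locus stood highest, with 2.09, 1.32 and 1.81 on the log2 scale in replicates 1, 2 and 3. Its mean was 1.74 (SE 0.23), an edit fraction 3.34-fold that of clusters of like depth (limma adjusted p = 0.00126). RAB6A followed with 1.35, 2.35 and 0.77 (mean 1.49, SE 0.30, limma adjusted p = 0.0119). SNX5 at chr20:17948437-17948601 (minus strand) had 0.65, 0.90 and 1.54 (mean 1.03, SE 0.24, limma adjusted p = 0.0206), but rested on 2 edited reads in each replicate. Reads over its C bases came to 0.542, 0.202 and 0.215 of the mean depth, and with bins of covered C bases the value fell to 0.40 (limma adjusted p = 0.34). ARF5 at chr7:127231643-127231687 (plus strand) had edit fractions of 1.40%, 1.89% and 2.68% (mean log2 0.98, SE 0.24, limma adjusted p = 0.0268). The first RAB7A locus had a mean log2 of 0.91 (SE 0.24, limma adjusted p = 0.0367). The second CLTC locus was below, at -0.72 (SE 0.20, limma adjusted p = 0.0441), with all 3 replicates negative. Its clusters of replicates 2 and 3 touch without sharing a base, and this locus, as those of RAB6A and SNX5, has no value when an overlap of 50% is required.

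The ARF4 call held under each of 8 alternatives, from 1.56 to 1.95 on the log2 scale. The other 5 loci kept their direction but lost their call under 1 to 4 of the 7 or 8 alternatives available to them. Fits that leave out 1 replicate test fewer samples, and several lost calls had a log2 value as large as before. For RAB6A the value was 1.56 without replicate 1 (limma adjusted p = 0.103). ARF5 was not called without replicate 1 (log2 1.24, limma adjusted p = 0.0602), without replicate 3 (limma adjusted p = 0.166) or with bins of covered C bases (limma adjusted p = 0.236). RAB7A was not called without replicate 1 (limma adjusted p = 0.232) or 3 (limma adjusted p = 0.123), nor with bins of covered C bases or the depth classes of the pipeline. SNX5 was not called without replicate 1 (log2 1.22, limma adjusted p = 0.0777) or 3 (limma adjusted p = 0.143). CLTC was called in none of the 3 fits that leave out 1 replicate (log2 from -0.75 to -0.69, lowest limma adjusted p = 0.130), nor with bins of covered C bases (limma adjusted p = 0.139).

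**Figure D5:**
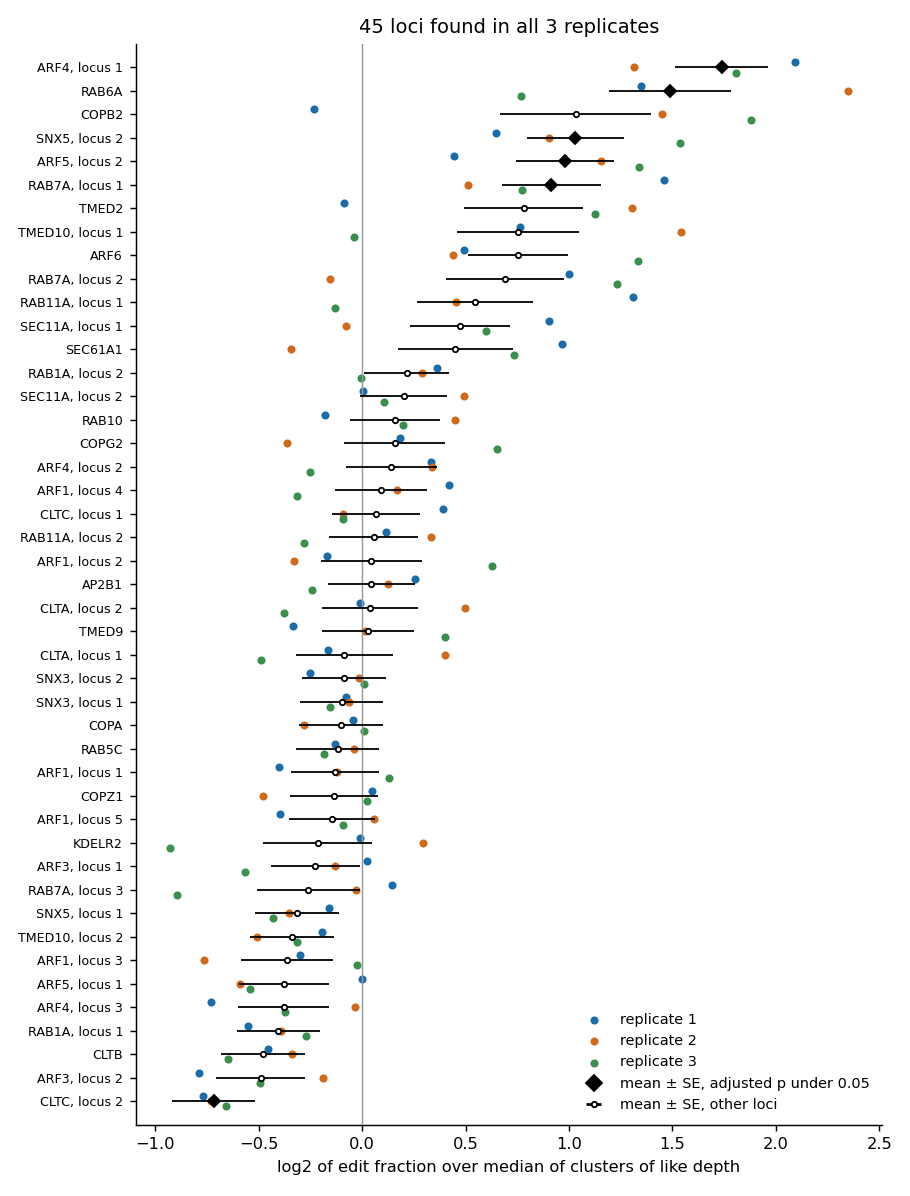
Log2 of the edit fraction of each of the 45 member loci over the median of clusters of like depth, for each replicate (coloured points) and as limma mean ± SE (filled diamonds at an adjusted p under 0.05, open circles otherwise). Of the 6 diamonds 5 lie to the right of 0, led by ARF4 at 1.74, and CLTC lies to the left at -0.72; loci of a gene are numbered by genome position.

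Replicates of a locus were close to each other in part. Between the lowest and the highest replicate the edit fraction differed by a median of 1.67-fold over the 45 loci, by up to 1.5-fold in 17 and by more than 2-fold in 15. RAB1A at chr2:65315505-65315609 was closest, at 0.811%, 0.808% and 0.771%, and COPB2 was furthest, 7.55-fold apart. In COPB2 that fold lies between clusters of replicates 1 and 3 that share no base, so it does not compare the same stretch. Pearson's r of log2 edit fraction between replicates was 0.729, 0.670 and 0.702 over the 45 loci, and 0.508, 0.521 and 0.530 relative to clusters of like depth. These describe loci that share depth and gene, and carry no p-value. For 4 member loci (in ARF5, CLTB, RAB11A and TMED10) the clusters had the same boundaries in each replicate, so that edited reads over reads could be compared directly. With 2 to 7 edited reads per replicate, none of the 4 was called in the exact conditional test (0 at an unadjusted p under 0.05, lowest exact p = 0.741), which covers counting error only and says little at these counts. The background was 2.3% of 174 such loci over all genes, and 9.77% at an unadjusted p under 0.05.

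Recurring loci of a member gene mostly lay close together, which was not compared with the recurring loci of other genes. The 18 neighbouring pairs were 30 to 25895 bases apart, with a median of 120 bases, and 14 were under 500 bases apart. Every one of the 45 lay in an exon as annotated in the deposited table. Exon numbers rise with genome position there, so that exon 0 of a minus-strand gene is its 3′-most listed exon. Exon 0 held 13 of the 22 recurring loci on the minus strand and 0 of the 23 on the plus strand. Of all minus-strand exonic member clusters 55.9% ± 4.09 (SD, n = 3) lay in exon 0, against 59.3% ± 2.41 over all genes. On the plus strand these shares were 0.781% ± 0.135 and 3.98% ± 0.255, so few loci in exon 0 could be looked for there. The shares are of clusters and not of recurring loci, for which the share over all genes is not given. The last exon of plus-strand genes has no fixed number and was not counted.

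Other trafficking genes outside these families were read from 5 lists of 200 genes. Clusters were present for 166 of them, in all 3 replicates for 79 (47.6%), and 22 (13.3%) held a recurring locus. The same shares were 52.1% and 19.0% for the member genes and 37.9% and 12.9% over all symbols, and the lists were not tested against each other. RABGGTB, a subunit of the enzyme that adds lipid to RABs, had 30, 26 and 22 edited reads. ARCN1, the delta subunit of COPI, had 41, 46 and 16, and AP3D1 of the AP3 adaptor had 7, 10 and 6. Of SNAREs and fusion factors, NSF had 29, 23 and 7 and VAMP2 11, 21 and 17. The cargo receptor SURF4 had 21, 35 and 3 edited reads, and VTA1 of the ESCRT pathway 18, 16 and 18. The tethers COG4 and EXOC8 had 8, 15 and 5 and 12, 9 and 5.

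Depth in these files is known only within clusters, where the listed reads summed over clusters to 1637592, 1731304 and 1104249. RBFOX2 itself held 17, 16 and 16 clusters, which does not separate the transcripts of the fusion from the cell's own. Of 7 marker genes of HEK293 cells NEFM and NEFL had clusters in every replicate and VIM in 1, and KRT8, KRT18, PAX2 and LHX1 had none. None of 6 markers of blood, liver, endothelium and fibroblasts had a cluster. The files list edits and not expression, so a marker without a cluster says little about the cells.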

How the data were processed

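Poly(A) RNA of 3 replicates, grouped by the titles in the labels, was sequenced. The authors called C-to-U positions with SAILOR and clusters with FLARE for each replicate on its own, keeping windows of 30 bases at an adjusted p-value under 0.1 and merging those within 15 bases. The submitters' processing notes name STAR and hg19. The authors deposited, per cluster, unscaled counts of reads and edited reads and of C bases, covered and edited, as well as the edit fraction and the fraction of edited reads, the mean read depth (a coverage signal not scaled to library size) and a score from a negative binomial model. Positions were read as BED intervals from their lengths and are given 1-based.

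Clusters were joined into loci where they shared 1 base or more and the strand, and a locus with several clusters in a replicate took summed counts. limma 3.58.1 (R 4.3.3) tested loci found in all 3 replicates relative to 20 depth bins per replicate. Exact sign-flip tests compared members with the rest, and exact conditional tests compared replicates. Python 3.11.15 was used with SciPy 1.17.1, pandas 2.3.3, NumPy 2.4.6 and, for the figures, matplotlib 3.10.9. The code was tested on simulated loci, where limma called 59% of 100 with a 2-fold change, 99% of 100 with a 4-fold change and 0.361% of 1386 unchanged ones. The simulated counts were binomial, with no variation between replicates beyond counting error. These rates therefore test the code and do not carry over to the real loci. Few edited reads per cluster limit the precision.

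Named were the 25 genes with the most edited reads among those with a locus in all 3 replicates, up to 3 genes in each role without one, each called locus, and the 2 leading genes of each other list, of which 1 is not reported here; TMED9 and CLTB, the last 2 genes with such a locus, single clusters and genes with few or shared clusters were added after their values were seen. The members and lists were chosen with earlier results of these data known. An hg19 genome was not used here, so no sequence is given.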

Additional observations from a re-analysis of the deposited data

How the results depend on the processing

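Minimum scores of 0.95 and 0.99, a depth of at least 50, at least 2 edited reads, an overlap of 50%, 40 depth bins, bins of covered C bases, the study's depth classes and leaving out each replicate were tried. Counting a cluster by its first listed symbol, using only clusters that list 1 gene, and a trend of the spread with edited reads were chosen after seeing the data. The mean of 283 member clusters per replicate became 168 at a score of at least 0.99 and 110 at a depth of at least 50. The 45 recurring loci became 22 at that score and 23 with an overlap of 50%, and from 69 to 84 were found in both remaining replicates when 1 was left out. The 5 loci above like depth became 3 with an overlap of 50%, and from 2 to 9 with 1 replicate left out, the 2 without replicate 1, the 9 without replicate 2 and the 3 without replicate 3. The 1 locus below became 0 with bins of covered C bases, 5 with the study's depth classes, 0 with an overlap of 50% and from 0 to 1 with 1 replicate left out. The 1 below without replicate 3 was not the CLTC locus, which was called in none of the left-out fits. Over all genes the classes moved the loci below from 19 to 126 of 1586, since depths of 50 and above then share 1 median. The 3 left-out fits test 2 replicates and other numbers of loci. The mean difference in median edit fraction was negative in each setting, from -0.659 points at a score of at least 0.99 to -0.0440 at a depth of at least 50. At that depth replicate 2 had the opposite sign. The member median relative to like depth, 0.04 over the 45 loci, was -0.04 with the study's depth classes and -0.0044 without replicate 1, so its sign depends on the setting. The 6 called loci kept their direction, and the causes of the other shifts were not tested. The comparison of members with the rest was paired by replicate, but no comparison between conditions was possible because the series has 1 condition. With 3 replicates the sign-flip test cannot fall under 0.25, and clusters with 1 edited read (26.2% ± 2.74 of member clusters, SD, n = 3) have little precision.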
